A study of Mus musculus with 8 samples.

Results

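The 7 genes described here belong to the steps by which a macrophage takes up arginine, turns it into nitric oxide and rebuilds it, together with the gene for the itaconate-making enzyme. They were chosen by name, as Nos2, Gch1, Slc7a1, Slc7a2, Ass1, Asl and Acod1, from the 55801 genes of the deposited mRNA-seq table, and each symbol stood on a single row. All 7 were among the 12189 genes tested, which had a mean of at least 1 TPM (transcript abundance scaled for gene length and library size) over the 8 samples. The cells were thioglycollate-elicited peritoneal macrophages of male C57BL/6 mice aged 6 to 8 weeks. They received either vehicle (DMSO) or 15 µM C498, a small molecule known here by its code name, for 0.5 h, and then either no further stimulus or 100 ng/ml lipopolysaccharide (LPS) for 4 h. This gave 4 groups of 2 samples, named NC (vehicle, no LPS, titled CTRL in the labels), LPS (vehicle, then LPS), C498 (C498, no LPS) and C498_LPS (C498, then LPS, written C498+LPS in the figures).

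Macrophages exposed to bacterial products import arginine and oxidise it to nitric oxide and citrulline, a reaction of the inducible nitric oxide synthase that needs the cofactor tetrahydrobiopterin. Arginine is also the source of ornithine, the starting point of the polyamines, whereas the citrulline formed beside nitric oxide can be rebuilt into arginine. Itaconate, made from an intermediate of the tricarboxylic acid cycle, is another product for which LPS-stimulated macrophages are known, and it is both antibacterial and a brake on inflammatory responses.

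LPS raised the synthase, its cofactor enzyme, the inducible arginine transporter and the itaconate enzyme in vehicle-treated cells. A gene was called when it changed at least 2-fold on the log2(TPM + 1) scale with a limma adjusted p of at most 0.05. In LPS vs NC, 4 of the 7 genes were called upregulated (Nos2, Slc7a2, Acod1 and Gch1) and none downregulated, against 5.55% upregulated and 6.68% downregulated among all genes tested. In C498_LPS vs C498, 3 were called upregulated (Slc7a2, Nos2 and Acod1), against 2.52% of all genes, and none downregulated, against 3.13%. Between the LPS-treated groups, no member was called upregulated by C498, against 5.39% of all genes, and Ass1 was called downregulated, against 2.18%. Without LPS, C498 vs NC called Nos2 upregulated, against 5.64%, and no member downregulated, against 1.36%. At the adjusted p alone, with no limit on the fold change, 5, 5, 2 and 2 of the 7 genes passed in these 4 comparisons, against 29.6%, 16.2%, 16.8% and 15.5% of all genes. Each group enters 2 of the 4 comparisons, so that each comparison shares a group with others, and all 4 use the same estimate of the spread. With 2 samples per group the smallest two-sided p of an exact permutation test is 0.333, so the calls rest on the spread that limma estimates across all genes. The labels do not say that replicates were separate cultures or animals, and the p-values measure the spread between these samples, which may be technical.

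**Figure D1:**
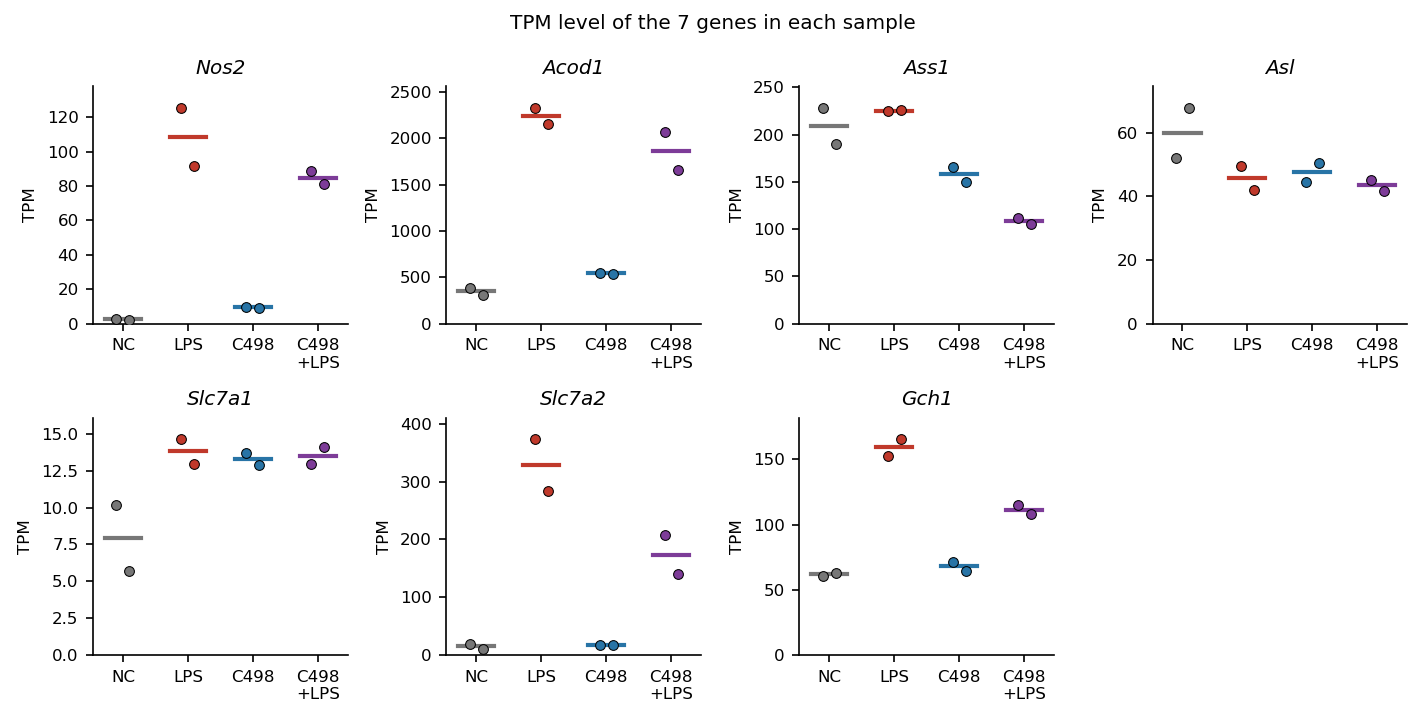
Level of each of the 7 genes in TPM (y axis, from 0, with its own scale in each panel) in the 4 groups (x axis); points are the 2 samples of a group and the bar is their mean. Nos2, Slc7a2, Acod1 and Gch1 stand highest in the LPS group and next highest in C498_LPS, and Ass1 stands lowest in C498_LPS at 104.83 to 111.34 TPM.

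The inducible nitric oxide synthase gene Nos2 rose from near the bottom of the tested range to its upper part. It measured 2.54 and 2.32 TPM in NC, 125.66 and 91.40 TPM in LPS, 9.84 and 9.13 TPM in C498, and 88.68 and 81.02 TPM in C498_LPS. No 2 groups overlapped, and the order of the group means was NC, C498, C498_LPS, LPS. The mean level lay above 15.0% of the tested genes in NC and above 89.6% in LPS. LPS raised Nos2 by 4.98 on the log2(TPM + 1) scale in vehicle-treated cells (SE 0.167, adjusted p = 4.24e-06), and the mean TPM was 44.7 times that of NC. After C498 the LPS response was 3.03 log2 units (SE 0.167, adjusted p = 9.45e-05), or 8.95 times the mean TPM. C498 alone raised Nos2 by 1.61 log2 units (SE 0.167, adjusted p = 0.00148), a mean TPM 3.9 times that of NC. The summed level of 6 fibroblast markers differed between the same groups, at 192.4 and 150.3 TPM in NC and 633.1 and 750.0 TPM in C498, and their part in the Nos2 value was not tested. In cells given LPS, the change with C498 was -0.34 log2 units (95% interval -0.73 to 0.06, adjusted p = 0.224), which did not pass the test.

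The difference between these LPS responses was tested as the interaction of C498 and LPS, and Nos2 was the single member called. Its LPS response was smaller after C498 by 1.95 log2 units (interaction -1.95, SE 0.236, 95% interval -2.5 to -1.39, adjusted p = 0.0262), where 0.394% of all genes were called in this direction. The starting level moved with this value, since the C498 samples without LPS stood at 9.13 to 9.84 TPM and the NC samples at 2.32 to 2.54 TPM. The call was made in 8 of 17 settings. It was lost with no filter on low values (adjusted p = 0.0835), with no variance trend (0.0724), and when any 1 of 7 samples was left out, every sample but NC replicate 1 (adjusted p from 0.0502 without LPS replicate 2 to 0.171 without C498 replicate 1). The interaction itself stayed between -2.26 and -1.68 over those settings. For 5 of the other members the interaction was also below 0, from -1.2 for Slc7a2 (adjusted p = 0.37) to -0.64 for Gch1 (0.135), and none of these passed the test. For Asl it was 0.25 (adjusted p = 0.722). The median over the 7 genes was -0.75, against -0.03 over all genes tested.

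**Figure D2:**
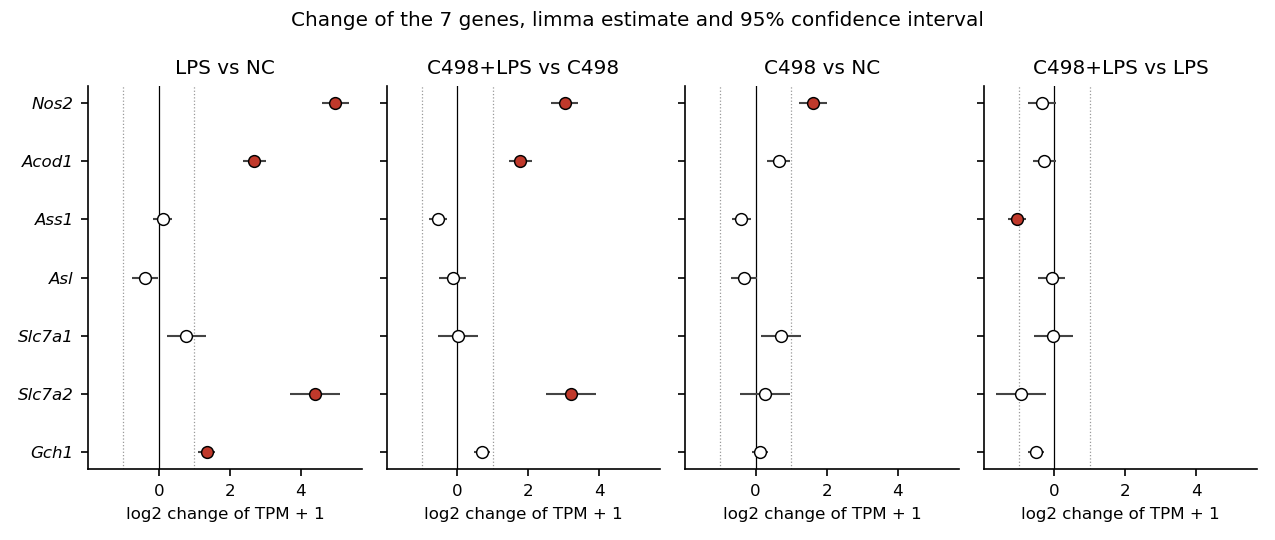
Log2 change of each of the 7 genes on the log2(TPM + 1) scale (x axis) in 4 comparisons (panels), with 95% intervals from limma; red points were called, white points were not, and dotted lines mark a 2-fold change in either direction. LPS vs NC has red points for Nos2, Slc7a2, Acod1 and Gch1, and C498_LPS vs LPS has a single red point, for Ass1 at -1.05.

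Gch1 encodes GTP cyclohydrolase 1, which catalyses the first step of tetrahydrobiopterin synthesis. Its level was 60.78 and 63.03 TPM in NC, 152.84 and 165.63 TPM in LPS, 71.64 and 64.54 TPM in C498, and 114.93 and 108.04 TPM in C498_LPS. The LPS groups stood above those without LPS, with no overlap, and the C498_LPS samples lay between the LPS samples and the rest. In vehicle-treated cells LPS raised Gch1 by 1.35 log2 units (SE 0.0977, adjusted p = 0.000132), 2.57 times the mean TPM of NC. After C498 the change with LPS was 0.70 log2 units (adjusted p = 0.00479), which passed the test but not the 2-fold limit. Between the LPS-treated groups Gch1 was lower with C498 by a log2 change of -0.51 (95% interval -0.74 to -0.28, adjusted p = 0.0138), also under the 2-fold limit, and its mean TPM was 30.0% lower. This pass was lost without LPS replicate 1 (adjusted p = 0.0602), LPS replicate 2 (0.0995) or C498_LPS replicate 2 (0.0905), and that after C498 without C498 replicate 2 (0.0504). C498 alone changed it by 0.13 log2 units (95% interval -0.10 to 0.36, adjusted p = 0.386).

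The cationic amino acid transporters Slc7a1 and Slc7a2 both carry arginine into the cell. Slc7a2 measured 19.48 and 10.47 TPM in NC, 373.66 and 283.41 TPM in LPS, 17.85 and 17.18 TPM in C498, and 207.67 and 139.78 TPM in C498_LPS. Of the 9135 exon bases of Slc7a2, 635 are shared with the antisense lincRNA gene Gm26584, and as the strand setting of the counting is not known, reads of the pair cannot be told apart there. The groups with LPS stood far above those without, the C498_LPS samples lay below the LPS samples, and the C498 samples lay within the range of NC. LPS raised Slc7a2 by 4.41 log2 units in vehicle-treated cells (SE 0.299, adjusted p = 9.84e-05) and by 3.21 after C498 (SE 0.299, adjusted p = 0.000944), mean TPM ratios of 21.9 and 9.92. The change between the LPS-treated groups was -0.93 log2 units (95% interval -1.63 to -0.23, adjusted p = 0.0775) and did not pass the test. It was called when each sample was centred on its median gene (-1.01, adjusted p = 0.0235). C498 alone gave 0.27 log2 units (95% interval -0.43 to 0.97, adjusted p = 0.567).

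Slc7a1, the transporter found in most cell types, was the lower of the pair in each sample. It measured 10.15 and 5.71 TPM in NC, 14.64 and 12.95 TPM in LPS, 13.68 and 12.86 TPM in C498, and 12.96 and 14.10 TPM in C498_LPS. The other 3 groups overlapped each other, and the NC samples lay below them. LPS vs NC gave 0.77 log2 units (SE 0.237, adjusted p = 0.0462), which passed the test but not the 2-fold limit, and C498 vs NC gave 0.72 (adjusted p = 0.083). The pass in LPS vs NC was lost with no filter on low values (adjusted p = 0.111), and the adjusted p lay between 0.00456 and 0.208 over the settings tried. Both values moved with the NC samples: without NC replicate 1 they were 1.14 and 1.09 and were called, and without NC replicate 2 the lowest values were reached, 0.41 and 0.36. Within the pair, Slc7a2 made up 65.7% and 64.7% of the summed TPM in NC, 56.6% and 57.2% in C498, 96.2% and 95.6% in LPS, and 94.1% and 90.8% in C498_LPS. Its share was thus higher in every LPS-treated sample than in every sample without LPS. TPM is scaled for gene length, listed as 3681 bases for Slc7a2 and 7179 for Slc7a1, and the longest Slc7a2 transcript has 7910. The order of the pair and the size of the share at another length were not tested.

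**Figure D3:**
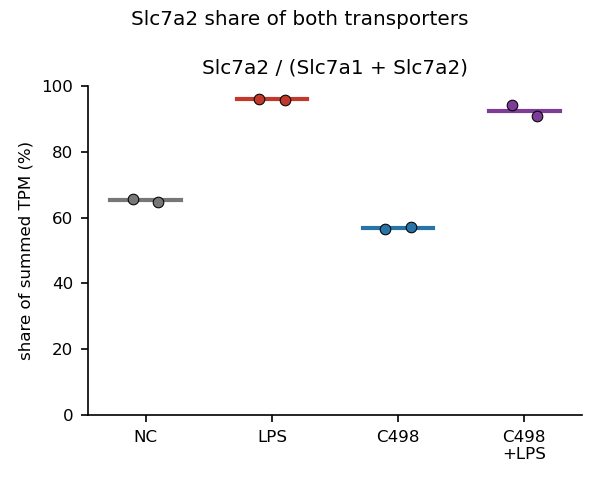
Percent of the summed TPM of Slc7a1 and Slc7a2 (y axis) taken by Slc7a2 in the 4 groups (x axis); points are samples and bars are means of 2 samples. The share lies between 56.6% and 65.7% in the 4 samples without LPS and between 90.8% and 96.2% in the 4 samples with it.

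Ass1 and Asl encode argininosuccinate synthase and argininosuccinate lyase, which in turn rebuild arginine from citrulline. Ass1 measured 228.50 and 190.40 TPM in NC, 225.06 and 225.83 TPM in LPS, 165.59 and 150.19 TPM in C498, and 111.34 and 104.83 TPM in C498_LPS. The vehicle groups overlapped, the C498 samples lay below them, and the C498_LPS samples were the lowest. Ass1 fell with C498 in LPS-treated cells (log2 change -1.05, SE 0.11, 95% interval -1.31 to -0.80, adjusted p = 0.00159), a mean TPM 52.1% lower than with LPS alone. The call was made in 17 of 18 settings and was lost under quantile normalization, where the change was -0.90. Without LPS the change with C498 was -0.40 (95% interval -0.66 to -0.14, adjusted p = 0.0503) and did not pass the test. Over the settings tried this change lay between -0.53 and -0.27. It passed the test in at least 1 of them and was called in none. LPS itself gave 0.11 in vehicle-treated cells (95% interval -0.15 to 0.37, adjusted p = 0.494), a value whose sign turned under quantile normalization, and -0.54 after C498 (adjusted p = 0.0192), which passed the test under the 2-fold limit. That pass was lost under centring on the median gene (adjusted p = 0.0781) and when any 1 sample of the 2 groups was left out (0.0682 to 0.129). The interaction of C498 and LPS for Ass1 was -0.65 (adjusted p = 0.175), so the effect of C498 was not shown to differ with LPS.

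Asl was called in none of the comparisons. It measured 51.99 and 67.89 TPM in NC, 49.40 and 41.93 TPM in LPS, 44.57 and 50.55 TPM in C498, and 45.18 and 41.62 TPM in C498_LPS. Its changes lay between -0.38 in LPS vs NC (95% interval -0.75 to -0.01, adjusted p = 0.115) and -0.07 in C498_LPS vs LPS (95% interval -0.44 to 0.30, adjusted p = 0.82). The 3 groups other than NC overlapped, and the NC samples lay above them. The ratio of Ass1 to Asl TPM was 3.6 ± 1.12 in NC, 4.97 ± 0.587 in LPS, 3.34 ± 0.526 in C498 and 2.49 ± 0.0384 in C498_LPS (SD, n = 2), so the C498_LPS samples were lowest and the LPS samples highest.

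Acod1 encodes aconitate decarboxylase 1, the mitochondrial enzyme that makes itaconate from cis-aconitate. It was the most abundant of the 7 transcripts in every sample, with 383.49 and 311.87 TPM in NC, 2333.82 and 2157.46 TPM in LPS, 549.90 and 534.44 TPM in C498, and 2072.48 and 1660.21 TPM in C498_LPS. In the LPS group its mean level ranked 51 among the 12189 genes tested, and in NC 436. No groups overlapped, and the order NC, C498, C498_LPS, LPS was that of Nos2. LPS raised Acod1 by 2.69 log2 units in vehicle-treated cells (SE 0.137, adjusted p = 2.75e-05) and by 1.77 after C498 (SE 0.137, adjusted p = 0.000402), mean TPM ratios of 6.46 and 3.44. With C498 alone the change was 0.65 log2 units (95% interval 0.32 to 0.97, adjusted p = 0.0228), which passed the test under the 2-fold limit. The pass was lost with no filter on low values (adjusted p = 0.0662) and without C498 replicate 1 (0.142), among other settings, and the change stayed between 0.50 and 0.80. In LPS-treated cells it was -0.27 (95% interval -0.60 to 0.05, adjusted p = 0.227), and the interaction was -0.92 (95% interval -1.38 to -0.47, adjusted p = 0.125); neither passed.

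Acod1 and Gch1 lie on chromosome 14 and were both raised by LPS in vehicle-treated cells, and their upstream sequences are shown for that reason. On the GRCm38 build, Acod1 spans chr14:103046977-103056573 on the plus strand in 5 exons and Gch1 spans chr14:47153895-47189413 on the minus strand. Nos2 lies at chr11:78920787-78960254 on the plus strand and its longest transcript has 27 exons. RefSeq promoter entries of GRCm38.p6 matched 4 of the 7 genes, and the 2 windows below run from 250 to 21 bases before the RefSeq start, 5′ to 3′ on the strand of the gene, with motif matches in capitals.
Acod1, chr14:103046762-103046991, plus strand: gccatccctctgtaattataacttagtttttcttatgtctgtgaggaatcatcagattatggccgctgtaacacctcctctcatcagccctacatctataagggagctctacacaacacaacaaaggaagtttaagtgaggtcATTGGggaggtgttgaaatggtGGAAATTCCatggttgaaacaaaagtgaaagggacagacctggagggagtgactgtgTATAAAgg
Gch1, chr14:47189434-47189663, minus strand: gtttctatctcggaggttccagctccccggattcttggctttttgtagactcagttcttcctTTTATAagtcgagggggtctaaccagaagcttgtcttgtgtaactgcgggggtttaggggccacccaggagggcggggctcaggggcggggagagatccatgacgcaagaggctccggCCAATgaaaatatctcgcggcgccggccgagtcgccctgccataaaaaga
In the Acod1 window the capitals mark, in order, the CCAAT box on the minus strand 107 to 103 bases before the start, the 9-base NF-kappaB motif GGAANTTCC 85 to 77 bases before it, and a TATA box, TATAAA, 28 to 23 bases before it. These distances are from the RefSeq start of Acod1 at position 103047012, which lies downstream of the GENCODE start at 103046977, so that the TATAAA match and the end of the window fall within the GENCODE span of the gene. In the Gch1 window they mark TATAAA on the minus strand 188 to 183 bases and CCAAT 70 to 66 bases before the start. On either strand, GGAANTTCC was found in 0.712%, TATAAA in 11.8% and CCAAT in 32.2% of 32851 promoter windows of this length. GGAANTTCC and CCAAT were added to the search after these sequences had been read. The other motifs searched, a 10-base NF-kappaB motif, the interferon-stimulated response element, TTCNNNGAA for STAT factors, TGANTCA for AP-1, TTGCNNAA for C/EBP factors and TGACGTCA for CREB, were not in these 2 windows and were in 3.7%, 2.72%, 6.48%, 6.34%, 9.05% and 1.28% of all windows.

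The genes most like Nos2 and Acod1 over the 8 samples were ranked by the root mean square difference of log2(TPM + 1), each gene taken around its own mean. For Nos2 they were Mir155hg, the host transcript of miR-155 (difference 0.257), Gbp5, an interferon-inducible guanylate-binding protein (0.306), and Il12b, the p40 subunit of interleukin-12 and interleukin-23 (0.32). Mir155hg averaged 1.21 TPM in NC, 6.36 in C498, 45.8 in C498_LPS and 63.1 in LPS, the group order of Nos2. For Acod1 they were Zc3h12a, an RNase that degrades inflammatory mRNAs (0.168), Nfkb2, an NF-kappaB subunit (0.179), and Fnbp1l (0.183). Zc3h12a averaged 25.9 TPM in NC, 36.6 in C498, 161.8 in C498_LPS and 169.0 in LPS.

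In polyamine metabolism, C498 raised the genes of ornithine decarboxylase, of the scarce antizyme inhibitor Azin2 and of the polyamine acetylase Sat1. Of 21 genes of arginine, ornithine and polyamine metabolism, 16 were tested. In C498_LPS vs LPS 3 were called upregulated (Odc1, Azin2 and Sat1), against 5.39% of all genes, and none downregulated, against 2.18%. All 16 had a log2 change above 0, or 15 of 16 after centring on the median gene, after quantile normalization or without C498_LPS replicate 1, and their median was 0.51 against 0.01 over all genes. In C498 vs NC the 3 called upregulated were again Azin2, Sat1 and Odc1, against 5.64% of all genes. There 11 of the 16 had a log2 change above 0 and 5 below it, 9 and 7 under either scaling, with a median of 0.47 against 0.01. Paox was lower at -0.70 (adjusted p = 0.0315), under the 2-fold limit. Odc1, which makes putrescine from ornithine, measured 42.86 and 44.51 TPM in NC, 46.75 and 42.21 TPM in LPS, 112.61 and 120.00 TPM in C498, and 200.97 and 222.35 TPM in C498_LPS. Its vehicle groups overlapped, and both C498 groups stood above them. C498 raised Odc1 by 2.23 log2 units with LPS (SE 0.101, adjusted p = 0.000108) and by 1.39 without (SE 0.101, adjusted p = 0.000343).

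Sat1, which acetylates spermidine and spermine for export or breakdown, rose with C498 by 1.31 log2 units with LPS (adjusted p = 0.000549) and by 1.41 without (adjusted p = 0.000241). Its levels were 261.13 and 271.89 TPM in NC, 410.50 and 414.17 TPM in LPS, 763.75 and 663.76 TPM in C498, and 1059.00 and 986.43 TPM in C498_LPS. Azin2, an antizyme inhibitor that spares ornithine decarboxylase from degradation, was low, with means of 1.02 TPM in LPS and 5.52 TPM in C498_LPS, and rose by 1.68 log2 units (adjusted p = 0.00245) and, without LPS, by 1.47 (adjusted p = 0.00503, or 0.0503 when only NC and C498 were fitted). Azin1, the more abundant antizyme inhibitor gene, was called in neither C498 comparison. Its mean was 41.5 TPM in LPS and 50.8 TPM in C498_LPS (log2 change 0.28, adjusted p = 0.269). Without LPS it was 48.5 TPM in NC and 82.5 TPM in C498 (0.77, adjusted p = 0.0198), under the 2-fold limit. LPS vs NC called Paox and Gamt downregulated, 2 of 16 where 6.68% of all genes were. Paox, a polyamine oxidase, fell from 16.7 ± 0.523 to 2.27 ± 0.17 TPM (log2 change -2.44, adjusted p = 9.91e-05), and in C498_LPS vs C498, where 3.13% of all genes were called downregulated, by -1.10 (adjusted p = 0.00653), a call lost under both scalings and without either C498 replicate. Gamt, of creatine synthesis, changed by -1.09 in LPS vs NC (adjusted p = 0.00277), and was not called under either scaling.

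**Figure D4:**
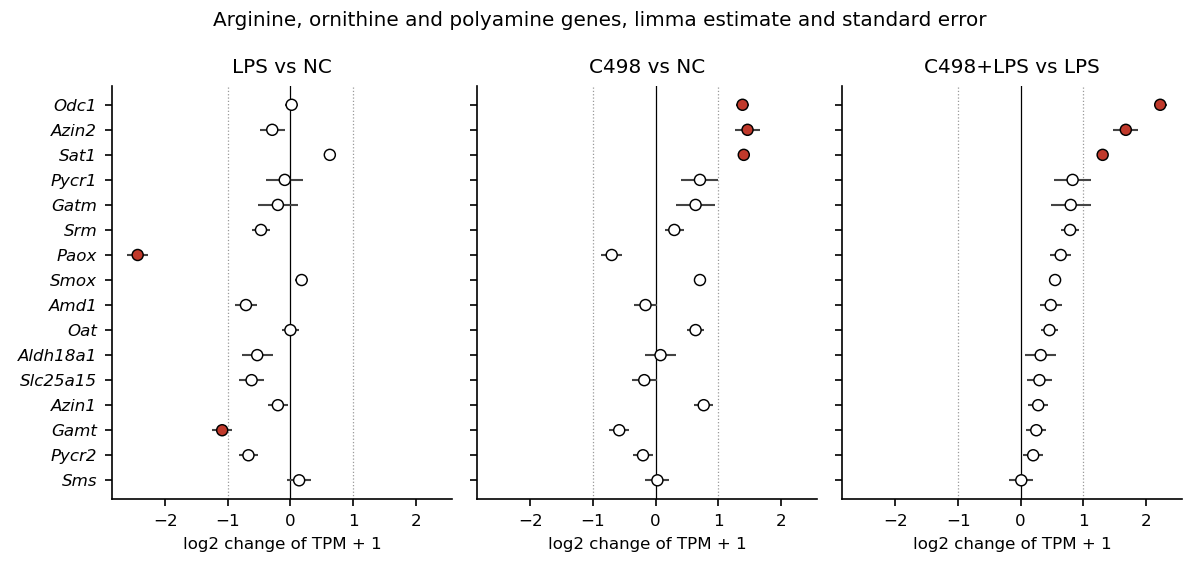
Log2 change on the log2(TPM + 1) scale (x axis) of the 16 tested genes of arginine, ornithine and polyamine metabolism (rows, ordered by the right panel) in 3 comparisons (panels); bars are limma standard errors, red points were called, white points were not, and dotted lines mark a 2-fold change. Odc1, Azin2 and Sat1 are red in both C498 comparisons, at 2.23, 1.68 and 1.31 in C498_LPS vs LPS, and Paox and Gamt are red on the negative side of LPS vs NC.

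Among 13 further cationic and heteromeric amino acid transporters, 8 were tested. Slc7a11, the cystine-glutamate exchanger, rose with LPS by 3.61 log2 units (adjusted p = 0.000396), from 17.38 and 8.54 TPM in NC to 179.94 and 144.16 TPM in LPS. It was also called in C498_LPS vs C498 (1.51, adjusted p = 0.0253) and in C498 vs NC (1.41, adjusted p = 0.0322), calls held in 10 and 7 of 17 settings. Without NC replicate 2 the C498 vs NC value was 0.94. Slc7a5, the large neutral amino acid transporter, rose with C498 alone by 1.30 log2 units (adjusted p = 0.00143), from 11.3 ± 1.51 to 29.3 ± 0.509 TPM. Over all genes 5.55%, 2.52% and 5.64% were called upregulated in LPS vs NC, C498_LPS vs C498 and C498 vs NC, and 1, 1 and 2 calls among 8 genes are too few to set against these shares.

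Of 24 tetrahydrobiopterin and nitric oxide synthase partner genes, 17 were tested, and in LPS vs NC 4 had a log2 change above 0 and 13 below it, with a median of -0.40 against -0.17 over all genes. The single call there was Nostrin, a nitric oxide synthase trafficking protein, downregulated by a log2 change of -1.12 (adjusted p = 0.0165), which held in 10 of 17 settings, where 6.68% of all genes were called downregulated. In C498 vs NC the chaperone gene Hsp90aa1 was called upregulated at 1.10 (adjusted p = 0.00264), from 117.9 ± 21.1 to 251.7 ± 10.6 TPM, where 5.64% of all genes were called upregulated. A single call among 17 genes is near these shares. That call was lost without NC replicate 2 (log2 change 0.92) and under centring on the median gene.

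Of 29 genes of the itaconate pathway and the tricarboxylic acid cycle, all tested, Idh1 was the single one called in any of the 4 comparisons, downregulated in LPS vs NC, against 6.68% of all genes, and in C498_LPS vs C498, against 3.13%. A single call among 29 genes is near or below these shares. Idh1, the cytosolic isocitrate dehydrogenase, measured 122.49 and 104.95 TPM in NC, 20.51 in both LPS samples, 71.93 and 71.91 TPM in C498, and 25.06 and 26.47 TPM in C498_LPS. It fell with LPS by 2.41 log2 units (log2 change -2.41, SE 0.109, adjusted p = 1.71e-05) and after C498 by 1.45 (log2 change -1.45, SE 0.109, adjusted p = 0.000365), and both calls held in 17 of 17 settings. In LPS vs NC, 25 of the 29 had a log2 change below 0, with a median of -0.30 against -0.17 over all genes.

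Among 18 transcription factor genes known at these loci, LPS called 5 upregulated in vehicle-treated cells, against 5.55% of all genes, and 4 after C498, against 2.52%. The largest changes in LPS vs NC were Nfkb1 at 2.08 (adjusted p = 3.76e-05), Batf2 at 1.96 (0.000141) and Rel at 1.71 (0.00442, or 0.0531 when only LPS and NC were fitted). In C498_LPS vs C498 they were Nfkb1 at 1.64 (0.000276), Irf8 at 1.31 (0.00135) and Batf2 at 1.23 (0.00239). Between the LPS-treated groups 2 were called upregulated, against 5.39% of all genes, and 1 downregulated, against 2.18%, counts too few to set against them. There C498 raised Irf8, a macrophage lineage and interferon response factor, by 1.43 (adjusted p = 0.00122), from 117.89 and 92.99 TPM to 299.36 and 269.61 TPM. It also raised Klf4 by 1.39 (adjusted p = 0.00174), and Cebpd fell (-1.11, adjusted p = 0.0111), a call lost when any 1 sample of the 2 groups was left out. In C498 vs NC 5 were called upregulated, against 5.64% of all genes, led by Klf4 at 2.58 (adjusted p = 0.000152), the cyclic AMP response gene Crem at 1.69 (0.000309) and the stress-induced factor Atf3 at 1.42 (0.000241). The last of these stood at 224.71 to 226.76 TPM in NC and at 569.05 to 648.12 TPM in C498.

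Markers of macrophages and of other cell types also differed with C498. All 10 macrophage markers were tested, and their summed level was 18416 to 21036 TPM in the vehicle samples and 12659 to 16368 TPM in the C498 samples, Lyz2 being the highest at 7830.8 to 15988.9 TPM and carrying most of the sum. No macrophage marker was called downregulated in C498 vs NC or C498_LPS vs LPS, where 1.36% and 2.18% of all genes were. In these comparisons 7 and 8 of the 10 had a log2 change below 0, with medians of -0.27 and -0.63 against 0.01 over all genes. At an adjusted p of at most 0.05, 3 of them were lower and 1 higher in C498 vs NC, and 5 were lower and 1 higher in C498_LPS vs LPS, where 15.5% and 16.8% of all genes passed in either direction. The 3 lower in C498 vs NC were Fcgr1 (-0.87, adjusted p = 0.0143), Spi1 (-0.77, 0.00398) and Lyz2 (-0.48, 0.0235). The 5 lower in C498_LPS vs LPS were Spi1 (-0.97, 0.00155), Adgre1 (-0.92, 0.0047), Csf1r (-0.91, 0.0154), Fcgr1 (-0.77, 0.0186) and Lyz2 (-0.64, 0.00731). The 1 higher in each was Cd14, the LPS co-receptor, which LPS also raised in vehicle-treated cells (2.41, adjusted p = 4.24e-06). Cd14 was called upregulated in C498 vs NC (1.47, adjusted p = 0.000121), from 243.7 ± 11.7 to 674.8 ± 16.3 TPM. Cd68 changed by 0.03 (adjusted p = 0.867) in C498 vs NC. The 6 fibroblast markers, 5 of them tested, summed to 150.3 to 200.5 TPM in the vehicle samples and 618.1 to 910.8 TPM in the C498 samples, led by Col1a1, and the 6 mesothelial markers to 5.03 to 6.51 and 17.4 to 29.4 TPM. Of the 5 tested fibroblast markers, 5 were called upregulated in C498 vs NC and 4 in C498_LPS vs LPS, against 5.64% and 5.39% of all genes, with a median log2 change of 2.0 in each against 0.01. Of the 5 tested mesothelial markers, 2 and 3 were called upregulated, with medians of 1.31 and 1.32. The 12 neutrophil markers summed to 220.0 to 243.1 TPM in the vehicle samples and 141.3 to 167.7 TPM in the C498 samples. S100a8 and Mmp8 carried most of the sum, at means of 102.1 and 109.1 TPM in NC. Mmp9 went the other way, from 17.5 TPM in NC to 24.4 TPM in C498. Elane and Ngp were at 0 in every sample. S100a9 and Ly6g were at 0 in every vehicle sample and at most 2.62 TPM with C498. Of the 5 tested, 1 was called downregulated in each comparison. B cell markers summed to 18.0 to 25.1 and 41.7 to 120.2 TPM, the highest in C498_LPS replicate 2, mast cell markers to 8.26 to 9.43 and 8.91 to 24.7 TPM, and endothelial markers to 21.8 to 30.6 and 22.6 to 35.4 TPM. T cell markers reached at most 7.89 TPM, eosinophil markers 2.26 TPM with Epx at 0, and hepatocyte markers 0.29 TPM with Alb, Ttr and Fgb at 0. The fibroblast, mesothelial and B cell sums were higher, and the macrophage and neutrophil sums lower, in every C498-treated sample than in every vehicle sample, whereas the ranges of the other lists overlapped. These 5 sums thus moved with every call given above between C498-treated and vehicle groups, those of Nos2, Ass1, Odc1, Sat1, Azin2, Irf8, Klf4, Crem, Atf3, Slc7a5, Slc7a11 and Hsp90aa1 included, and their part in those results was not tested. In bulk samples, fewer cells of a type and less RNA per cell cannot be told apart. TPM values keep no record of read depth, so the precision set by depth cannot be given. Between 17528 and 18975 genes were above 0 TPM in a sample.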

How the data were processed

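mRNA-seq was carried out on 8 samples, 2 in each of 4 groups. The submitters' processing notes name fastp, HISAT2, StringTie and RSEM with no versions, and the genome build and the strand setting of the counting are not given in the sources used here. The deposited values are TPM per gene (transcript abundance scaled by the authors for gene length and library size), so a count test could not be run and the depth per sample is unknown. The group columns of the authors' table equal the mean of their 2 samples and were not used. The fit was made on log2(TPM + 1), over the 12189 genes with a mean of at least 1 TPM, with limma 3.58.1 in R 4.3.3, all 8 samples, 1 mean per group, a variance trend, and Benjamini-Hochberg adjustment within each comparison over all genes tested. A gene was called at a 2-fold or larger change with an adjusted p up to 0.05, limits that the study's methods apply to another test, one for counts. Ratios between groups are of mean TPM, and that of Ass1 to Asl is the mean of the ratios within samples. Replicates correlated across genes with r of 0.962 to 0.981.

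The script was tested on simulated data for LPS vs NC over 12189 genes, in which 82 of 100 planted changes of 1.5 log2 units and 97 of 100 of 3 were recovered with 6 false calls. The 7 genes, the marker lists and the pathway lists were chosen with earlier results of these data known. Every one of the 7 genes is named; 2 further genes of the set are not reported here. Of each list, at most 3 called genes per direction and comparison are named, those with the largest change. Some genes that were not called are named beside them, as Azin1, Paox, Cd68 and other macrophage and neutrophil markers. For Nos2 and Acod1 the 3 most alike profiles are named. Locations and overlaps are from GENCODE M21 (GRCm38), which holds 11874 of 11906 tested Ensembl identifiers. Promoters are from RefSeq, GRCm38.p6. Alternatives were another pseudocount, other filters, centring on the median gene, quantile normalization, no variance trend, a replicate block, the compared groups alone, no fold limit, and leaving out each sample.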

Additional observations from a re-analysis of the deposited data

Results flagged for a closer look

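The LPS response of Nos2 differed between cells with and without C498 by the test of the difference itself: the interaction of C498 and LPS was -1.95 log2 units (limma, SE 0.236, adjusted p = 0.0262), from a response of 4.98 in vehicle-treated cells and 3.03 after C498. Nos2 stood above its own group without LPS in 4 of 4 LPS-treated samples. No other of the 7 genes passed this test, and the call was held in 8 of 17 settings.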

How the results depend on the processing

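The members called numbered 4 to 5 in LPS vs NC and 3 in C498_LPS vs C498, and 5 in each with no fold limit. In C498_LPS vs LPS the count went from 1 to 0 under quantile normalization, to 2 (Slc7a2 and Ass1) under centring and to 2 with no fold limit. In C498 vs NC it went from 1 to 2 with no fold limit and ranged from 1 to 2 when 1 sample was left out, with 2 (Nos2 and Slc7a1) without NC replicate 1. In the interaction it went from 1 to 0 with no filter on low values and with no variance trend, and ranged from 0 to 1 when 1 sample was left out. Asl in C498_LPS vs C498 turned to 0.09 under centring, and Ass1 in LPS vs NC to -0.01 under quantile normalization. When 1 sample was left out, values near 0 turned sign: Ass1 in LPS vs NC ran from -0.02 to 0.24, Slc7a2 in C498 vs NC from -0.15 to 0.69, Asl and Slc7a1 in C498_LPS vs LPS from -0.18 to 0.05 and -0.11 to 0.06, and Slc7a1 in C498_LPS vs C498 from -0.03 to 0.08. The causes were not tested. The replicate numbers of different groups deviated together only weakly (r from 0.0397 to 0.168 over 6 pairs of groups, 3 over 0.1), so they were not taken to pair the samples, although each r was above 0. With the replicate block the members called were 4, 3, 1, 1 and 1, as without it, and 1491, 688, 923, 853 and 57 genes called became 1537, 736, 950, 927 and 84. Over all genes, centring moved the calls in LPS vs NC from 677 up and 814 down to 853 and 530. In C498_LPS vs C498 they went from 307 and 381 to 434 and 196. In C498 vs NC they went from 687 and 166 to 565 and 269. Quantile normalization gave 767 and 510, 410 and 262, and 548 and 266 in these comparisons. Their median log2 changes were -0.17, -0.18 and 0.01 before centring and -0.001, 0.038 and -0.108 after it. With only the groups compared, C498 vs NC called 306 up and 73 down. A minimum of 5 TPM gave 594 calls in C498_LPS vs LPS and 566 in C498 vs NC. The interaction called 18 genes with no filter and 12 with no variance trend, and it has no fit on fewer groups. With no fold limit the comparisons called 3609, 1980, 2045, 1886 and 60 genes. Leaving out 1 sample gave 1182 to 1641, 366 to 720, 470 to 956, 345 to 1382 and 9 to 92. Samples left alone in a group were assumed to vary like the others.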
